A study of Mus musculus with 26 samples.

Results

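The enzymes that write and remove DNA methylation were followed in the testes of mice carrying an altered *Ythdc2* gene. The genes were *Dnmt1*, *Uhrf1*, *Dnmt3a*, *Dnmt3b*, *Dnmt3c*, *Dnmt3l*, *Tet1*, *Tet2* and *Tet3*, chosen by symbol from the gene table, and all 9 were found among its 51124 genes. Total RNA of adult whole testes had been freed of ribosomal RNA before sequencing, and each genotype had 2 libraries from different mice. Wild type gave libraries N1 and N2, *10xPerf* gave N3 and N4, and *10xBulge* gave N5 and N6, and values of a pair are given in this order. Both knock-in lines carried 10 sites that pair with piR-A, a piRNA of pachytene spermatocytes, and these were placed in the 3′ untranslated part of *Ythdc2*. The sites were fully complementary in *10xPerf*, while in *10xBulge* they were mismatched at the centre, where a PIWI protein would cut. The paper reports that the sites of both lines were cut in testis. It saw no effect on fertility in any of the homozygous knock-in lines. For *10xBulge* it also reports smaller litters on occasion and lower expression of postmeiotic genes. The lines were made with Cas9 in B6D2F1/J hybrid embryos and were kept as homozygotes, and the strain of the wild-type mice and the exact ages are not given in the sources used here. The 20 immunoprecipitation samples of the study were not analysed here.

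Methylation of cytosine in CpG pairs keeps transposons, imprinted genes and germline genes silent. DNMT1 copies the pattern after DNA replication, and UHRF1 brings it to half-methylated DNA. DNMT3A, DNMT3B and the rodent enzyme DNMT3C methylate DNA afresh, and DNMT3L, which has no catalytic activity, stimulates DNMT3A. In the male germline these de novo enzymes act mainly before birth, when DNMT3C silences young retrotransposons. The TET enzymes oxidize methylcytosine, which can then be replaced by repair or lost in replication. A whole testis holds spermatogonia, meiotic spermatocytes, postmeiotic spermatids and somatic cells, so a level in these libraries is a sum over all of them.

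The genes lie at chr9:20907209-20959888 (*Dnmt1*), chr17:56303321-56323486 (*Uhrf1*), chr12:3806007-3914443 (*Dnmt3a*), chr2:153649450-153687730 (*Dnmt3b*), chr2:153696652-153729907 (*Dnmt3c*), chr10:78041947-78063622 (*Dnmt3l*), chr10:62804570-62908996 (*Tet1*), chr3:133463679-133545139 (*Tet2*) and chr6:83362373-83459084 (*Tet3*) of GRCm38, an older build than the GRCm39 used for counting. *Dnmt3b* and *Dnmt3c* are neighbours on the forward strand with 8921 bases between them. Their coding sequences were 89.4% identical over 2196 aligned bases, with a longest identical run of 287 bases, whereas *Dnmt3a* was 64.7% identical to *Dnmt3b* and 66.9% to *Dnmt3c*. The first 30 bases of that run are printed for both genes, with 0 mismatches, because 100-base reads that lie wholly inside the run cannot be told apart.
*Dnmt3c*, exon 16, chr2:153723482-153723511, forward strand: tgtaacccagtgatgatcgatgccatcaag
*Dnmt3b*, exon 21, chr2:153678471-153678500, forward strand: tgtaacccagtgatgatcgatgccatcaag
Over 1507 stretches of 30 bases that align without gaps within exons, the median was 1 mismatch, and 569 had none. Of all 100-base stretches of *Dnmt3c* transcripts, 11.3% were also found in *Dnmt3b*, and 5.22% of those of *Dnmt3b* were found in *Dnmt3c*. *Uhrf1* shared 6.57% of its 100-base stretches with the pseudogene *Gm5648*. *Dnmt1* and *Dnmt3l* shared none with another gene, and the other members at most 0.104%.

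*Dnmt3l* is known to be transcribed from separate starts in prospermatogonia, oocytes and the adult testis. RefSeq on GRCm38 gave 3 starts, and the 30 bases before each are shown because the gene table sums the transcripts of all of them. Capitals mark CG, the pair that DNMT enzymes methylate.
*Dnmt3l*, chr10:78042257-78042286, forward strand: cttaagctgtgatgggctgtttccttcttc
*Dnmt3l*, chr10:78049812-78049841, forward strand: cttaagaccCGcccctgagtgcctgccccc
*Dnmt3l*, chr10:78055305-78055334, forward strand: aggtagggaCGgaatgcttctatggccttt
In windows from 250 bases before to 50 bases after a start, the starts of *Dnmt3l* held 6, 4 and 3 CG pairs, against a median of 7 over all 32851 RefSeq windows. The windows of the other members that had one held between 2 and 57 CG pairs, with 57 at *Tet2* and 47 at 1 of the starts of *Dnmt3a*. At least 57 pairs were found in 0.152% of all windows. CG was counted on 1 strand, which is enough because the pair reads the same on both. A window was available for 8 of the 9 genes, and none for *Dnmt3c*.

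The values are the authors' normalized counts per gene from DESeq2, compared between genotypes with limma on log2(value + 1). A gene was tested where 2 or more libraries held 10 or more normalized counts, and called at an adjusted p under 0.1. All 9 genes passed, and each was above 10 in every library. The libraries held roughly 41.1 to 61.6 M reads, at which 3 reads correspond to 2.73 to 3.63 normalized counts. Libraries of 1 genotype were not alike in base composition: across 12426 coding genes, which are not independent, Spearman's rho with GC content was 0.615 for N1 over N2, 0.518 for N5 over N6 and -0.242 for N3 over N4. Among all 23782 genes tested, *10xPerf* differed from wild type in 0.959%, with 0.467% called higher and 0.492% lower. *10xBulge* differed from wild type in 34.4%, with 11.4% called higher and 23.0% lower, and from *10xPerf* in 37.0%, with 12.9% higher and 24.1% lower. Scaling by library totals changed the share of higher calls among all calls in *10xBulge* against wild type from 33.2% to 54.95%. Marker genes of spermatids were all called lower in *10xBulge* than in wild type (16 of 16), and their summed level was 2449 to 5216 normalized counts there and 749595 to 1051490 in the other libraries. Markers of Leydig cells (6 of 8), Sertoli cells (7 of 10) and macrophages (7 of 8) were called higher, with no marker of these lists called lower. Of the spermatogonial markers 3 of 14 were higher and 1 lower, of the spermatocyte markers 1 of 16 was higher and 2 were lower, and of 6 peritubular and vessel markers none was called.

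In wild type the members spanned a wide range of levels per length. Levels per length are normalized counts per kb of the longest coding transcript, which need not be the one expressed in testis. *Uhrf1* was highest with 2178 ± 649 per kb (SD, n = 2), followed by *Dnmt1* with 371 ± 132 and *Dnmt3l* with 208 ± 95.8, although N1 held 277 per kb of *Dnmt1* and 276 of *Dnmt3l*. *Dnmt3a* (108 ± 20.7) and *Tet3* (106 ± 8.43) came next and overlapped between libraries. *Dnmt3b* (73.6 ± 14.9), *Tet2* (18.6 ± 6.29), *Dnmt3c* (9.42 ± 3.21) and *Tet1* (6.30 ± 0.390) followed, each without overlap with its neighbours. In *10xPerf* the first 4 genes kept this order. In *10xBulge* *Dnmt3l* was eighth with 20.6 ± 4.17 per kb, and *Dnmt3c* was sixth with 48.1 ± 2.91, overlapping *Tet2* (41.6 ± 28.3). *Uhrf1* and *Dnmt1* were first and second in each genotype, and *Tet1* was last.

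**Figure D1:**
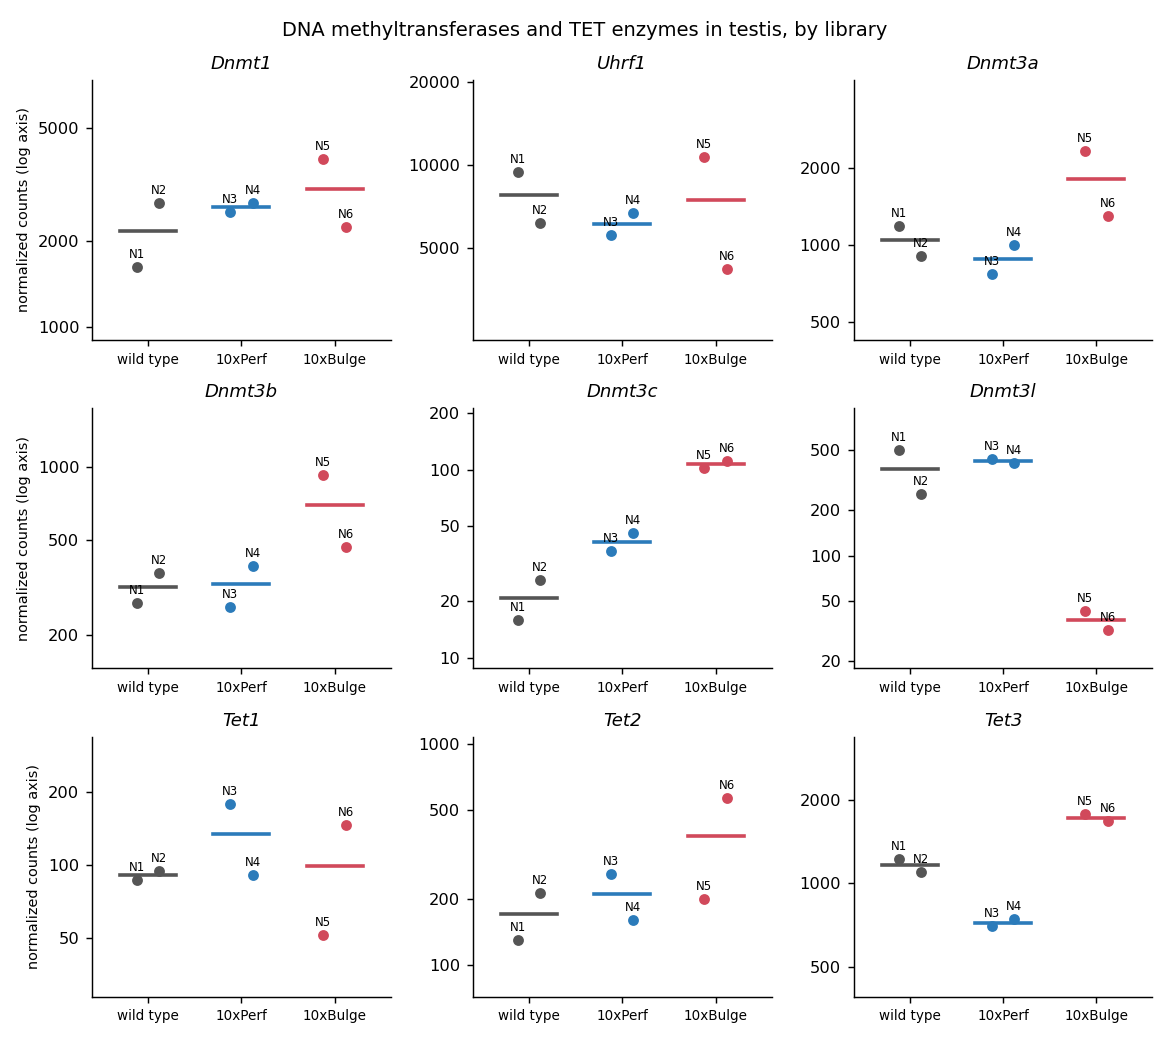
Normalized counts of each gene on log axes, with 1 point per library and a line at the mean of each genotype. *Dnmt3l* lies between 256 and 502 in wild type and *10xPerf* and at 42.8 and 32.1 in *10xBulge*, while *Dnmt3c* lies between 15.9 and 46.05 in the first 4 libraries and at 102 and 111 in *10xBulge*.

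Transcripts of *Dnmt3l*, the gene of the cofactor of de novo methylation, fell in *10xBulge* testes. No other member was called lower in any comparison. From which start the *Dnmt3l* transcripts came, and whether they encode the full protein, cannot be read from values summed per gene. The wild-type pair held 502 and 256 normalized counts, the *10xPerf* pair 440 and 411, and the *10xBulge* pair 42.8 and 32.1. Both *10xBulge* libraries were below every other library. Wild type averaged 379 ± 174 (SD, n = 2), *10xPerf* 425 ± 20.4 and *10xBulge* 37.4 ± 7.60, so that the mean of wild type was 10.1 times that of *10xBulge*. Its log2 fold change in *10xBulge* was -3.24 against wild type (standard error 0.47, limma adjusted p = 0.000816) and -3.48 against *10xPerf* (standard error 0.47, limma adjusted p = 0.000482). For *10xPerf* against wild type it was 0.25 (95% confidence interval -0.82 to 1.31, limma adjusted p = 0.909). The call in *10xBulge* held without any of the libraries, with values between -3.73 and -2.75 against wild type.

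Like all listed spermatid markers, and like 23.0% of all genes tested, *Dnmt3l* was called lower in *10xBulge* than in wild type. Of 16 spermatocyte markers, 2 were called lower as well (*Rec8* and *Syce2*) and 1 higher (*Dmc1*). On the log2 scale and relative to the wild-type mean, the median spermatid marker stood at -6.65 in N5 and -7.78 in N6, and *Dnmt3l* at -3.04 and -3.44. Among the 124 tested genes of the partner and marker lists, the pattern of *Odf1*, a sperm tail gene, was most like that of *Dnmt3l* over the 6 libraries (Pearson's r = 0.996), followed by *Mbd2* (0.992). These coefficients rest on the gap between *10xBulge* and the other libraries. The part of the lower spermatid markers in the result was not tested, and in bulk RNA fewer cells of a type and less RNA per cell cannot be told apart.

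*Dnmt3c*, the youngest of the de novo enzymes, rose in *10xBulge*. The wild-type pair held 15.9 and 26.0 normalized counts, the *10xPerf* pair 36.9 and 46.05, and the *10xBulge* pair 102 and 111. The genotypes did not overlap, with wild type lowest, *10xPerf* between and *10xBulge* highest. Wild type averaged 20.9 ± 7.14 (SD, n = 2), *10xPerf* 41.5 ± 6.45 and *10xBulge* 107 ± 6.48, which was 5.11 times the mean of wild type. The log2 fold change was 2.34 in *10xBulge* against wild type (standard error 0.51, limma adjusted p = 0.00890) and 1.35 against *10xPerf* (standard error 0.51, limma adjusted p = 0.0783). The call against wild type held without any of the 4 libraries, while that against *10xPerf* was lost without any 1 of N3, N4, N5 or N6 (limma adjusted p from 0.145 to 0.307). In *10xPerf* the value was 0.99 against wild type (95% confidence interval -0.17 to 2.14, limma adjusted p = 0.853), which did not pass. Non-overlap of this kind, higher in *10xPerf*, was found for 20.2% of all genes tested.

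For *Dnmt3b*, its neighbour, the wild-type pair held 272 and 364 normalized counts, the *10xPerf* pair 263 and 389, and the *10xBulge* pair 923 and 468. Both *10xBulge* libraries were above the others, but they differed from each other by 0.98 on the log2 scale. The log2 fold change was 1.06 in *10xBulge* against wild type (95% confidence interval -0.01 to 2.13, limma adjusted p = 0.132) and 1.04 against *10xPerf* (95% confidence interval -0.03 to 2.10, limma adjusted p = 0.133). Neither passed the threshold. Leaving out N6 gave 1.55 and a call against wild type (limma adjusted p = 0.0440), and leaving out N5 gave 0.57 (limma adjusted p = 0.454). *Dnmt3b* was 1.55 above the wild-type mean in N5 and 0.57 in N6. Median markers were in the same order for Leydig cells (2.27 and 1.27), macrophages (1.84 and 1.36) and Sertoli cells (1.57 and 0.88). So were those of spermatogonia (1.08 and 0.38), peritubular muscle and vessels (0.69 and -0.04) and spermatids (-6.65 and -7.78). Spermatocyte markers went the other way, at -0.28 and 0.29. The ratio of N5 to N6 also rose with GC content across genes, and *Dnmt3b* transcripts held 53.1% GC. With each library's GC trend removed, chosen after seeing the data, the values were 1.14 against wild type and 0.95 against *10xPerf*. Both were then called (limma adjusted p = 0.0548 and 0.0945). Higher calls over all genes also rose in that fit, from 2712 to 4729 and from 3077 to 4989. The part of these cells in the value was not tested, and that of GC content not beyond this fit. Among the listed genes, *Zbtb16*, a spermatogonial marker, was most like *Dnmt3b* over the 6 libraries (Pearson's r = 0.984). *Dnmt3c* did not follow this order, with 2.28 in N5 and 2.40 in N6.

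Within a library, the log2 ratio of *Dnmt3c* to *Dnmt3b* per kb does not depend on scaling between libraries. The wild-type pair stood at -3.14 and -2.85, the *10xPerf* pair at -1.87 and -2.12, and the *10xBulge* pair at -2.21 and -1.11. Both wild-type libraries were below the other 4. As the authors' software divided reads that match both genes by estimation, the level of *Dnmt3c* carries an uncertainty that the replicates do not show.

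For *Dnmt3a*, whose product DNMT3L stimulates, the wild-type pair held 1192 and 908 normalized counts, the *10xPerf* pair 768 and 997, and the *10xBulge* pair 2329 and 1296. Again both *10xBulge* libraries were highest, and N5 was further from the rest. The log2 fold change was 0.74 in *10xBulge* against wild type (95% confidence interval -0.24 to 1.72, limma adjusted p = 0.242) and 0.99 against *10xPerf* (95% confidence interval 0.01 to 1.97, limma adjusted p = 0.121), and neither passed. Without N6 the value against *10xPerf* was 1.41 and called (limma adjusted p = 0.0480). Its pattern was most like that of *Cyp11a1*, a steroid-making enzyme of Leydig cells (Pearson's r = 0.988 over the 6 libraries).

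The make-up of the family therefore differed between libraries of *10xBulge* and the others. Among transcripts of *Dnmt3a*, *Dnmt3b*, *Dnmt3c* and *Dnmt3l* per kb, *Dnmt3l* made up 58.8% in N1, 42.5% in N2, 60.6% in N3 and 51.3% in N4, but 4.49% in N5 and 5.68% in N6. The share of *Dnmt3c* was 1.52% and 3.54% for the wild-type pair, 4.17% and 4.72% for the *10xPerf* pair, and 8.79% and 16.2% for the *10xBulge* pair. Part of a rise in share follows from the fall of *Dnmt3l* itself. Among the 3 catalytic genes alone, *Dnmt3c* made up 3.70% and 6.16%, 10.6% and 9.69%, and 9.20% and 17.2% in these pairs.

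**Figure D2:**
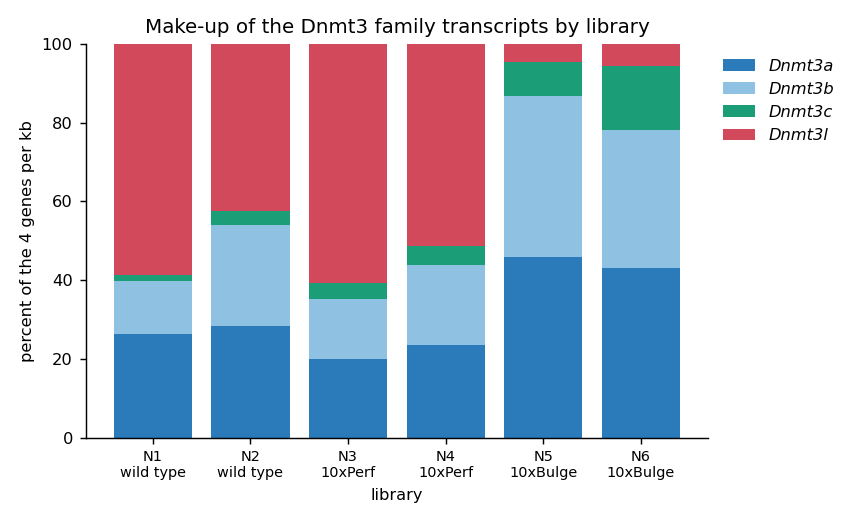
Share of each gene among transcripts of the 4 *Dnmt3* genes (normalized counts per kb of the longest coding transcript, bars add to 100%), with 1 bar per library. The *Dnmt3l* part runs from 42.5% to 60.6% in wild type and *10xPerf* and is 4.49% and 5.68% in *10xBulge*.

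The maintenance genes did not pass the test in any comparison. For *Dnmt1* the wild-type pair held 1629 and 2726 normalized counts, the *10xPerf* pair 2542 and 2729, and the *10xBulge* pair 3871 and 2238. The genotypes overlapped, and the libraries of *10xBulge* stood on both sides of those of *10xPerf*. Its log2 fold change in *10xBulge* against wild type was 0.48 (95% confidence interval -0.52 to 1.48, limma adjusted p = 0.460). The value for *10xPerf* was 0.32 (95% confidence interval -0.68 to 1.32, limma adjusted p = 0.881). For *Uhrf1* the wild-type pair held 9457 and 6166 normalized counts, the *10xPerf* pair 5582 and 6704, and the *10xBulge* pair 10719 and 4197. The *10xBulge* libraries were the highest and the lowest of all 6, a gap of 1.35 on the log2 scale. The log2 fold change of *Uhrf1* was -0.19 in *10xBulge* against wild type (95% confidence interval -1.34 to 0.97, limma adjusted p = 0.824), while that of *10xPerf* was -0.32 (95% confidence interval -1.48 to 0.84, limma adjusted p = 0.896). With 2 libraries per genotype the intervals are wide, and changes of these 2 genes inside them are not excluded.

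*Tet3* rose in *10xBulge* relative to *10xPerf*. Of the TET genes it was the most abundant per kb in every library, with 61.3% to 86.6% of their sum. The wild-type pair held 1224 and 1095 normalized counts, the *10xPerf* pair 699.8 and 740, and the *10xBulge* pair 1775 and 1670. No genotypes overlapped, with *10xPerf* lowest (19.8% of all genes were lower there than in wild type without overlap) and *10xBulge* highest, and libraries of 1 genotype differed by at most 0.16 on the log2 scale. The log2 fold change in *10xBulge* was 1.26 against *10xPerf* (standard error 0.37, limma adjusted p = 0.0320) and 0.57 against wild type (95% confidence interval -0.26 to 1.40, limma adjusted p = 0.285). The value for *10xPerf* against wild type was -0.68 (95% confidence interval -1.51 to 0.14, limma adjusted p = 0.853). Without N3 the call against *10xPerf* was lost (1.22, limma adjusted p = 0.182), and also without N4 (1.30, limma adjusted p = 0.118). It held without N5 or N6. In the same comparison markers of Sertoli cells (9 of 10), Leydig cells (7 of 8), macrophages (6 of 8), spermatogonia (7 of 13 tested) and peritubular muscle and vessels (2 of 6) were called higher, and those of spermatids (16 of 16) and spermatocytes (3 of 16) lower. Of all genes tested, 12.9% were higher and 24.1% lower in this comparison. The part of these markers in the rise of *Tet3* was not tested.

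*Tet1* and *Tet2* had the highest SD within genotypes when pooled over the genotypes (0.73 on the log2 scale for both), although the wild-type pair of *Tet1* differed by only 0.12. For *Tet2* the wild-type pair held 130 and 211 normalized counts, the *10xPerf* pair 259 and 161, and the *10xBulge* pair 198 and 566. The high level was in N6 alone, and the genotypes overlapped. Its log2 fold change in *10xBulge* against wild type was 1.01 (95% confidence interval -0.29 to 2.31, limma adjusted p = 0.229). Without N5 it was 1.77 and called (limma adjusted p = 0.0375), and without N6 it was 0.26 (limma adjusted p = 0.761). For *Tet1* the wild-type pair held 86.6 and 94.5 normalized counts, the *10xPerf* pair 178 and 90.5, and the *10xBulge* pair 51.5 and 146, with the lowest level in N5. The log2 fold change of *Tet1* in *10xBulge* was -0.06 against wild type (95% confidence interval -1.41 to 1.29, limma adjusted p = 0.959). Transcripts of *Tet1* and *Tet2* were the poorest in GC among the 9 genes, with 43.7% and 45.4% against 51.9% to 53.95% for the others. Both were lower in N5 than in N6, a pair whose ratio rose with GC content. With each library's GC trend removed, *10xBulge* against wild type stood at 1.08 for *Tet2* and 0.042 for *Tet1*. Neither was called (limma adjusted p = 0.114 and 0.956). The part of this relation in the values was not tested beyond that fit.

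In all, 1 of the 9 genes was called higher (*Dnmt3c*) and 1 lower (*Dnmt3l*) in *10xBulge* against wild type, beside 11.4% and 23.0% of all genes. Against *10xPerf*, 2 were higher (*Dnmt3c* and *Tet3*) and 1 lower (*Dnmt3l*), beside 12.9% and 24.1%. Nothing particular to these genes is read from the counts. In *10xPerf* against wild type limma called 0 of the 9, also at an unadjusted p under 0.05, the smallest being 0.0852 for *Dnmt3c*. The median log2 fold change over the 9 genes was 0.57 in *10xBulge* against wild type, beside -0.03 over all genes tested, and 0.25 in *10xPerf*, beside 0.02. Without overlap between libraries, 4 of the 9 were higher and 1 lower in *10xBulge* than in wild type, beside 28.9% and 33.2% of all genes, and again 4 and 1 against *10xPerf*, beside 30.7% and 35.3%. The comparisons with wild type share N1 and N2. Of the listed genes, the most alike over the 6 libraries were *Parp1* for *Dnmt1* (Pearson's r = 0.979), *Xrcc1* for *Uhrf1* (0.935), *Idh1* for *Dnmt3c* (0.973), *Mbd4* for *Tet1* (0.977), *Ogt* for *Tet2* (0.914) and the spermatogonial marker *Ret* for *Tet3* (0.957), among 124 genes compared for each. These are descriptions over the same 6 libraries, with no test. For 2 against 2 libraries, 0.333 is the smallest p of an exact two-sided permutation test.

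**Figure D3:**
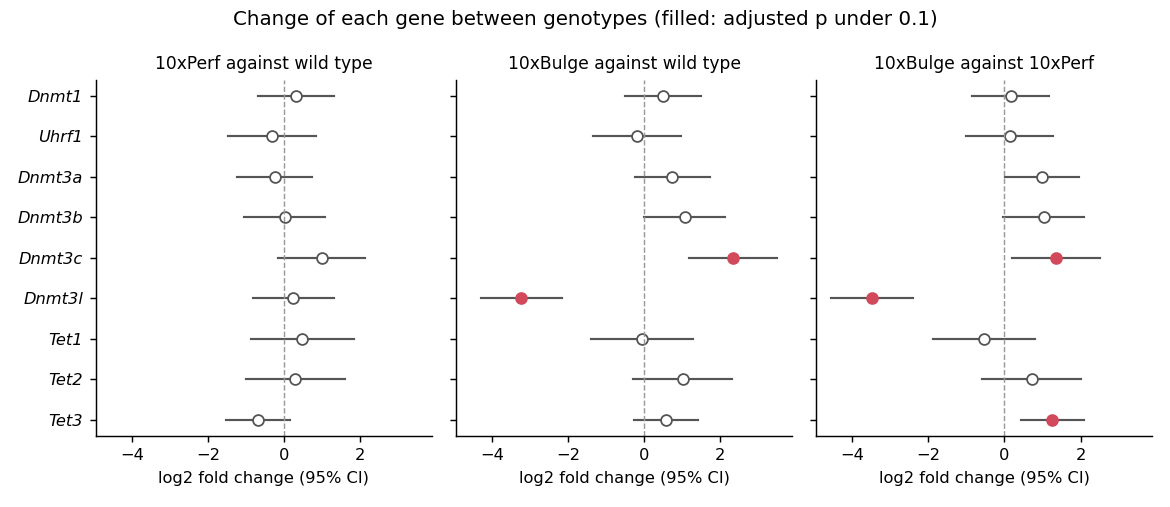
Log2 fold change of each gene with its 95% confidence interval from limma, in 1 panel per comparison. Filled points passed an adjusted p of 0.1, and these are *Dnmt3l* at -3.24 and -3.48, *Dnmt3c* at 2.34 and 1.35, and *Tet3* at 1.26 against *10xPerf*.

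**Figure D4:**
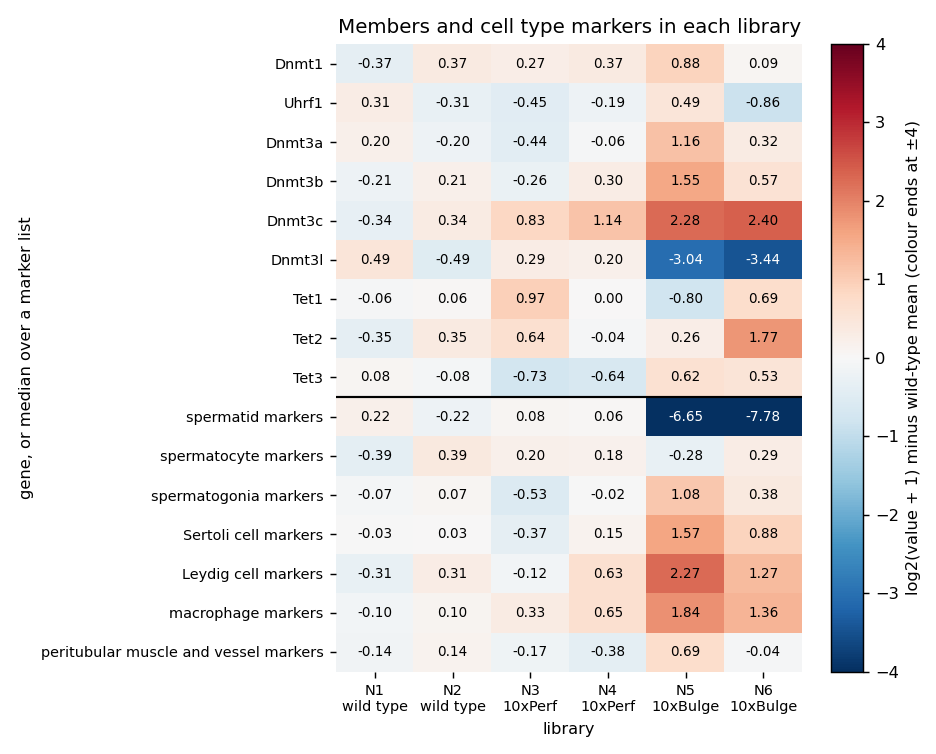
Level of each gene, and median over each list of cell type markers, in every library as log2(value + 1) minus the wild-type mean. In N5 and N6 the spermatid median is at -6.65 and -7.78 and *Dnmt3l* at -3.04 and -3.44, while the median of Leydig cell markers is at 2.27 and 1.27.

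Genes that work with these enzymes were followed in 6 lists of 49 genes. In *10xBulge* against wild type, 18 of the 47 tested were called higher and 4 lower, beside 11.4% and 23.0% of all genes, and the median log2 fold change was 0.83. Many of these calls were lost without N1, which leaves N2 alone for wild type. Calls over all genes also became fewer without N1, so nothing particular to the lists is read from the loss. Against *10xPerf*, 13 were higher and 5 lower, beside 12.9% and 24.1% of all genes. Without N3, which leaves N4 alone for *10xPerf*, calls became fewer in these lists and over all genes. In *10xPerf* against wild type limma called 0 of the 47.

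The TET partner and base excision repair list had 7 of 14 tested genes higher and 1 lower in *10xBulge* than in wild type. Over all genes the shares were 11.4% and 23.0%. As the lists were chosen with earlier results known, nothing particular to a list is read from its count. Most calls against wild type in these lists were lost without N1, and calls over all genes became fewer as well. Whether the values of N1 or the loss of replicates lay behind this was not tested. The calls named below carry this limit. *Idh1*, which makes the cofactor that TET enzymes consume, had 1697 ± 850 normalized counts in wild type and 8280 ± 1900 in *10xBulge* (SD, n = 2; log2 fold change 2.36, limma adjusted p = 0.00596). Its mitochondrial relative *Idh2* rose by 1.53, *Tdg*, the glycosylase that removes oxidized methylcytosine, by 1.34, *Ogt*, a sugar transferase that binds TET proteins, by 1.50, and the DNA damage genes *Gadd45a* by 1.29 and *Gadd45b* by 1.11. The proteins of *Cxxc4* and *Cxxc5* both bind TET2 and unmethylated CpG, and these genes moved in opposite directions. For *Cxxc4* the wild-type pair held 42.1 and 32.0 normalized counts and the *10xBulge* pair 107 and 141 (log2 fold change 1.72, limma adjusted p = 0.0286). For *Cxxc5* they held 6997 and 5179, and 683 and 484 (log2 fold change -3.39, limma adjusted p = 0.000193). Against *10xPerf*, *Neil1* (1.77) and *Smug1* (1.18), also repair glycosylases, were called higher.

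Among the genes of the nuclear piRNA pathway, which directs de novo methylation to transposons before birth, 1 of 6 rose and 1 fell. This stands beside 11.4% and 23.0% of all genes. *Spocd1*, whose protein links the PIWI protein MIWI2 to the methylation machinery, had 450.2 and 324 normalized counts in the wild-type pair, 398 and 324 in the *10xPerf* pair, and 83.2 and 27.9 in the *10xBulge* pair. All libraries of *10xBulge* were below the others (log2 fold change -2.96 against wild type, limma adjusted p = 0.00379). *Piwil4*, which encodes MIWI2, had 46.2 and 28.0 in the first pair, 27.0 and 47.8 in the second, and 117 and 78.0 in the third (log2 fold change 1.38 against wild type, limma adjusted p = 0.0967). The call of *Piwil4* was lost without any 1 of N1, N2 or N5.

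Of the methyl-CpG readers, 3 of 8 rose and 1 fell, beside 11.4% and 23.0% of all genes. *Mbd1* rose by 1.19, *Zbtb33* (Kaiso) by 1.64 and *Zbtb38* by 1.44 on the log2 scale. *Mbd2*, a repressor that binds methylated CpG, fell by 1.29 (limma adjusted p = 0.0354), from 2178 and 1753 normalized counts in the wild-type pair to 908 and 701 in the *10xBulge* pair. Of 9 tested maintenance partners, 2 rose and 1 fell, beside the same shares of all genes. *Cdca7*, a partner of the remodeller HELLS, rose by 1.48 and *Uhrf2*, the relative of *Uhrf1*, by 1.12. *Zfp57*, which guards imprints, had 594 and 808 normalized counts in the wild-type pair, 981 and 991 in the *10xPerf* pair, and 226 and 117 in the *10xBulge* pair (log2 fold change -2.08 against wild type, limma adjusted p = 0.00820). *Usp7*, a deubiquitinase that binds DNMT1 and UHRF1, was called lower only in *10xBulge* against *10xPerf* (-1.42, limma adjusted p = 0.0759). Its wild-type pair held 5575 and 14541 normalized counts, the *10xPerf* pair 23450 and 13889, and the *10xBulge* pair 7326 and 6226. The lowest value was thus in wild type (N1).

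The S-adenosylmethionine cycle, which supplies the methyl group, had 4 of 9 genes higher and none lower in *10xBulge* than in wild type. The shares over all genes were 11.4% and 23.0%. *Mat2a*, the synthase, had 3567 and 6859 normalized counts in the wild-type pair, 4736 and 6445 in the *10xPerf* pair, and 14164 and 16076 in the *10xBulge* pair (log2 fold change 1.61 against wild type, limma adjusted p = 0.0274). Its regulatory subunit gene *Mat2b* rose by 1.77, the methionine synthase gene *Mtr* by 1.51 and *Ahcyl1* by 1.61. *Ahcy*, which breaks down the product of methyl transfer, was called higher against *10xPerf* (1.33, limma adjusted p = 0.0614). *Trdmt1*, the DNMT family member that methylates transfer RNA, rose by 1.40 against wild type (limma adjusted p = 0.0524). The part of the somatic cell and spermatid markers in these changes was not tested.

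**Figure D5:**
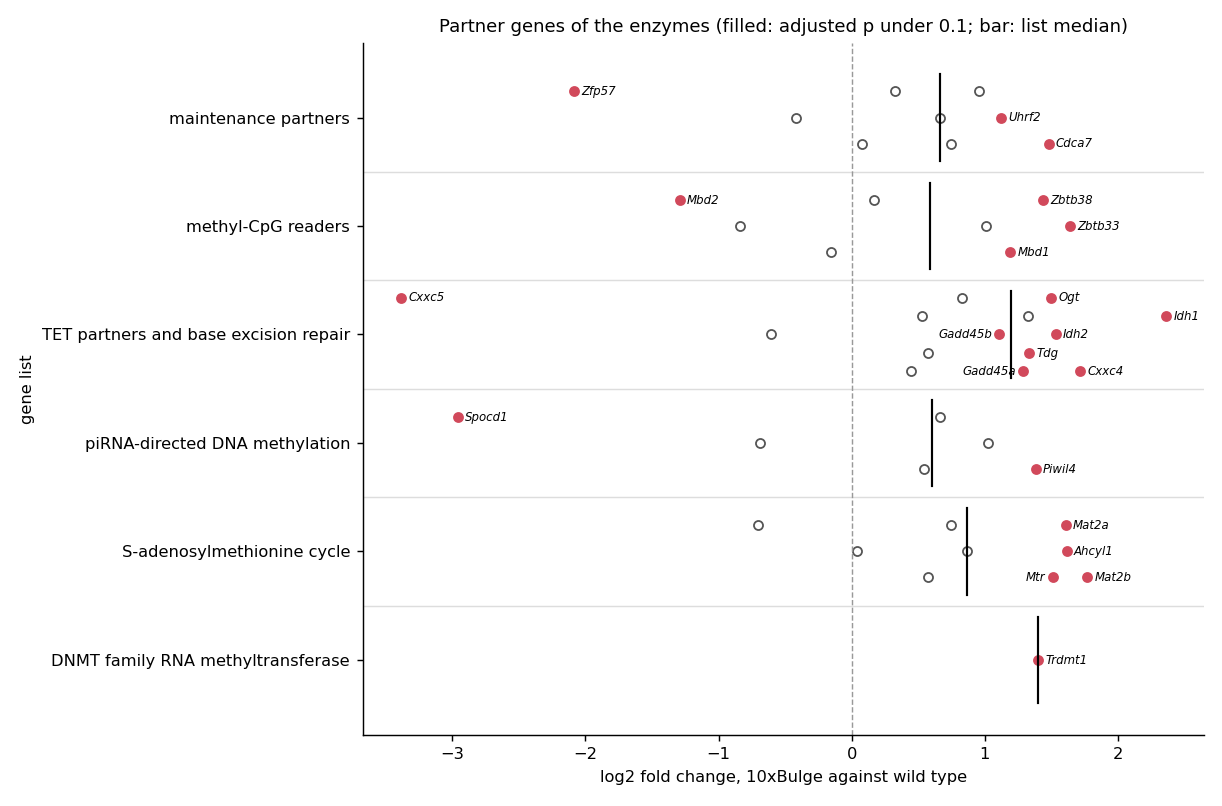
Log2 fold change in *10xBulge* against wild type of the 47 tested partner genes, in 1 row per list, with a bar at each list's median. Filled points passed an adjusted p of 0.1, and *Cxxc5* (-3.39), *Spocd1* (-2.96), *Zfp57* (-2.08) and *Mbd2* (-1.29) are those below 0.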

How the data were processed

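Of the study's 26 samples, the 6 testis RNA-seq libraries were analysed. The authors assigned single-end reads from a stranded kit to GRCm39 transcripts (Ensembl 104) with salmon and its GC correction, and deposited normalized counts per gene from DESeq2, a signal that is not whole reads (per library, 6.74% to 9.96% of the values above 0 equal a whole number of steps, at a tolerance of 1e-04). The authors also deposited log2 fold changes and adjusted p-values of each line against wild type, made in DESeq2, which were not used. Genotypes came from the sample titles.

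Genes reaching 10 normalized counts in 2 or more libraries (23782) were fitted over all 6 libraries as log2(value + 1) in limma 3.58.1 (R 4.3.3), with genotype as the only factor and a trend of variance with mean. Fold changes on this scale understate those of low genes. P-values were adjusted by Benjamini-Hochberg over all genes tested. The procedure was tested on simulated independent normal values with planted shifts and no GC trend. That test does not show how calls behave in these libraries. Count tests were not run because the values are not counts. Members and gene lists were chosen with earlier results of these data known. Partner genes are named where they passed the threshold in a comparison, and beside each member the listed gene with the highest Pearson's r. Sequences, lengths and GC content came from GRCm38 (GENCODE and RefSeq), with Python 3.11.15. The alternatives were other scalings, filters, pseudocounts, thresholds and fits, and leaving out each library. Removal of each library's GC trend (loess, span 0.3) was chosen after seeing the data. Depth was approximate, and 3 reads as a floor cover counting error only.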

Additional observations from a re-analysis of the deposited data

Results flagged for a closer look

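The effects of the knock-in alleles against wild type differed from each other, tested as *10xBulge* against *10xPerf*, for 3 of the 9 genes. For *Dnmt3l* the difference was -3.48 on the log2 scale (limma adjusted p = 0.000482), with both *10xBulge* libraries below both *10xPerf* libraries. For *Tet3* it was 1.26 (limma adjusted p = 0.0320), with *10xPerf* below and *10xBulge* above wild type in both libraries of each. Of all genes, 19.8% were lower in *10xPerf* and 28.9% higher in *10xBulge* than in wild type without overlap. Neither line was called against wild type for *Tet3* (limma adjusted p = 0.853 and 0.285). For *Dnmt3c* it was 1.35 (limma adjusted p = 0.0783), with both lines above wild type. The calls of *Tet3* and *Dnmt3c* were lost without N3 or without N4, and that of *Dnmt3c* also without N5 or N6. Of all genes tested, 37.0% differed in this comparison.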

How the results depend on the processing

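No paired analysis was possible because the library numbers do not repeat between genotypes. The members called lower (*Dnmt3l* in both comparisons of *10xBulge*) and the 0 called in *10xPerf* against wild type held their number under all alternatives run. The number called higher in *10xBulge* against wild type was 1. It was 4 with library totals, 2 with the upper quartile and 3 with the GC trend removed. Higher calls over all genes rose as well, from 2712 to 5788, 3241 and 4729 in this order. Against *10xPerf* the number was 2, and 4 with library totals, the upper quartile or the GC trend removed. There higher calls over all genes rose from 3077 to 5122, 3966 and 4989. The number of members was 1 with a filter of 1 in 1 library or an adjusted p under 0.05, beside 2660 and 1725 over all genes. Leaving out a library, which leaves a genotype without replicates, also changed the numbers. Against *10xPerf* the higher calls of members were lost without N3 or N4, and calls over all genes became fewer. The calls added by another scaling or by GC removal were of *Dnmt3a*, *Dnmt3b* and *Tet3* against wild type, and of *Dnmt3a* and *Dnmt3b* against *10xPerf*. The median of all genes in *10xBulge* against wild type was -0.03, and ranged over the other scalings from -0.13 to 0.36 (library totals), and relative to 0.36 *Dnmt3a* was at 0.76, *Dnmt3b* at 1.08 and *Tet3* at 0.60. All genes called there numbered 8178, and 10533 with library totals. Signs reversed only for values that were not called. With the upper quartile, *Dnmt3b* in *10xPerf* was at -0.042. With library totals, *Uhrf1* and *Tet1* in *10xBulge* against wild type were at 0.20 and 0.32, and *Tet1* was at 0.042 with the GC trend removed. Without single libraries, values ran in *10xPerf* against wild type from -0.049 to 0.69 for *Dnmt1*, -0.26 to 0.30 for *Dnmt3b*, -0.24 to 0.73 for *Dnmt3l* and -0.050 to 0.65 for *Tet2*, in *10xBulge* against wild type from -0.86 to 0.49 for *Uhrf1* and -0.80 to 0.69 for *Tet1*, and against *10xPerf* from -0.24 to 0.56 for *Dnmt1*, -0.54 to 0.81 for *Uhrf1*, -1.29 to 0.21 for *Tet1* and -0.042 to 1.47 for *Tet2*. The causes were not tested.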

Other observations

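Within libraries, the log2 ratio of *Uhrf1* to *Dnmt1* per kb was 3.25 and 1.89 in the wild-type pair, 1.85 and 2.01 in the *10xPerf* pair, and 2.18 and 1.62 in the *10xBulge* pair, with N1 apart from the other wild-type library. The share of *Tet2* among the TET transcripts per kb was 10.7% and 17.7%, 26.9% and 19.1%, and 11.5% and 27.4% in these pairs. The libraries of *10xBulge* held nearly the whole range.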
